A study of Homo sapiens with 6 samples.

Results

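The genes described here serve the supply of cysteine and the making, recycling and breakdown of glutathione in CUTLL1 cells, a cell line of human T-cell acute lymphoblastic leukaemia. There are 10 of them, taken by gene name from the 50868 genes of the deposited table. They are SLC7A11, CTH, CBS, GCLC, GCLM, GSS, GSR, GPX4, CHAC1 and CHAC2. The set was chosen by the strong falls of SLC7A11 and CHAC1 in the comparison reported below, so the values of these 2 genes are given as a description without a test. The other 8 were taken for their place in the pathway, but with results of the same comparison known, and their tests describe this comparison without adding independent support. All 10 passed the filter on low counts, CTH through its control libraries alone.

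RNA was sequenced from 6 cultures, 3 infected with lentivirus carrying a short hairpin RNA against AURKB (shAURKB), the gene of the mitotic kinase Aurora B, and 3 infected with a control hairpin named for GFP (shGFP). All cultures were under puromycin and were harvested at 48 h. The labels name 1 cell line and 1 AURKB shRNA and give no hairpin sequence, so effects of knockdown and of that hairpin cannot be told apart. Both arms grew in RPMI medium with serum, non-essential amino acids, 2 mM glutamine and 55 µM β-mercaptoethanol. That last thiol is known to let cultured lymphoid cells gain cysteine by routes other than the cystine transporter.

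Library totals ran from 10154187 to 11922979 counts. AURKB itself was at 97.0 to 107 CPM (reads scaled to a common library size, here by TMM) in the controls and at 36.0 to 43.9 CPM with AURKB shRNA. The marker sums that follow are CPM of the library total, without TMM. Markers of the T lineage summed to 2662 to 2814 CPM in the controls and 2982 to 3115 CPM with AURKB shRNA, with 9 of 10 markers in the tested set. The erythroid markers HBB and HBA1 were at 0 in all libraries, 3 myeloid markers summed to at most 0.587 CPM, and 3 B-cell markers to 15.8 to 22.6 CPM, with MS4A1 at 0. Library shGFP replicate 1 stood apart by 17.9 CPM of fibroblast markers (5 genes, of which COL3A1, DCN and LUM were at 0) against at most 0.394 CPM elsewhere, and by 9.31 CPM of 4 epithelial markers against at most 1.09 CPM. Their part in the results was not tested, and values without that library are given where they alter a call.

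Glutathione is the main small thiol of the cell. Its cysteine comes from cystine, imported by the xCT transporter (SLC7A11 paired with the heavy chain SLC3A2) and reduced inside the cell, or from methionine through transsulfuration by CBS and CTH. Glutamate-cysteine ligase, made of the catalytic subunit GCLC and the modifier GCLM, performs the rate-limiting step, and GSS adds glycine. GPX4 spends glutathione to detoxify lipid peroxides and so restrains ferroptosis, GSR returns oxidised glutathione to its reduced form, and CHAC1 and CHAC2 cleave glutathione in the cytosol. SLC7A11 and CHAC1 are textbook targets of ATF4, the transcription factor of the integrated stress response, while GCLC, GCLM, GSR and SLC7A11 are targets of NRF2 (gene NFE2L2), the factor that answers oxidative stress.

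With AURKB shRNA, transcripts of cystine uptake (SLC7A11), transsulfuration (CBS, CTH) and inducible breakdown (CHAC1) were lower, those of the ligase (GCLC, GCLM), the reductase (GSR) and the peroxidase GPX4 were higher, and GSS and CHAC2 were not called. By the edgeR quasi-likelihood test at a Benjamini-Hochberg adjusted p below 0.05, 4 of the 10 were higher, where 12.5% of the 14818 tested genes were, and 4 were lower, where 10.9% of tested genes were (CTH, 1 of these 4, was tested only because its controls were high). With upper-quartile scaling 2 members were higher and 4 lower, and over all tested genes the calls moved from 1847 higher and 1609 lower to 1325 and 2087. All 4 lower members had fitted falls of at least 2-fold, a size seen in 1.81% of tested genes. The groups did not overlap in 8 of the 10, against 42.6% of tested genes. Since the comparison also chose the set, nothing is read from these counts. Leaving out 1 library took the higher members to 1 (shGFP replicate 1 or shAURKB replicate 2), 2 (shGFP replicate 2 or shAURKB replicate 3) or 3, and the lower members to 2 (shGFP replicate 1 or 2) or 3. The median log2 fold change was 0.07 over the members and 0.00 over all tested genes. In RNA from whole cultures, fewer cells making a transcript and less of it per cell cannot be told apart.

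**Figure D1:**
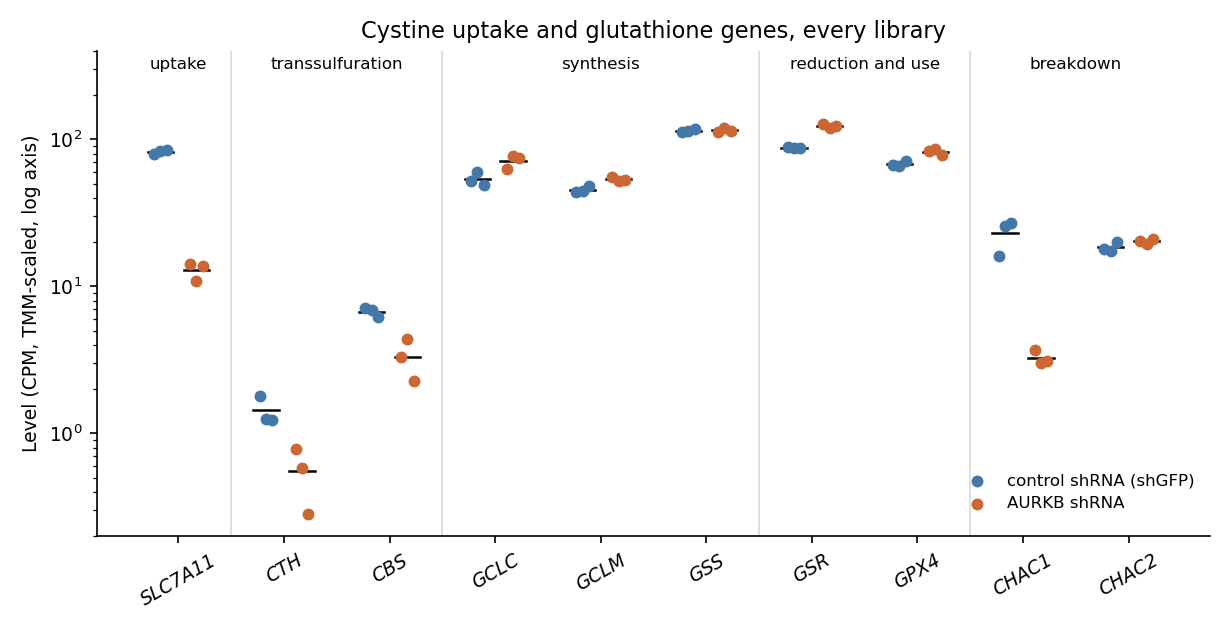
Level of each of the 10 genes in every library (CPM, log axis), grouped by role. Blue points are the 3 control libraries, orange points the 3 AURKB shRNA libraries, and black lines the arm means. SLC7A11 and CHAC1 lie far below their controls, while GSS and CHAC2 overlap between the arms.

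SLC7A11, the light chain that carries cystine in exchange for glutamate (ENSG00000151012, GRCh38 chromosome 4, 138164097 to 138242349, minus strand), had 842, 863 and 1018 reads in the controls (replicates 1 to 3, the order used throughout) and 163, 111 and 146 with AURKB shRNA. In CPM these were 79.5, 83.8 and 84.1 against 14.3, 10.8 and 13.8. The controls were tightly grouped (82.4 ± 2.59 CPM, SD, n = 3), and every AURKB shRNA library lay far below them (13.0 ± 1.88 CPM, SD, n = 3). The log2 fold change of -2.66 ± 0.11 (SE) corresponds to 15.8% of control and ranked 7 from the lowest of 14818 tested genes. Leaving out any 1 library gave log2 fold changes of -2.74 to -2.55. The antisense gene SLC7A11-AS1, which overlaps it on the other strand, had 230 reads over the controls and 46 over the AURKB shRNA libraries (log2 fold change -2.28). The strand setting of the counting is not given in the sources used here, so reads of the pair cannot be told apart.

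The heavy chain SLC3A2 (ENSG00000168003, chromosome 11, 62856102 to 62888875), which several amino acid transporters share, moved far less. It was at 162, 161 and 159 CPM in the controls and 127, 121 and 123 CPM with AURKB shRNA. It fell by 0.38 ± 0.04 (SE) on the log2 scale (edgeR adjusted p = 1.44e-03). Per length (FPKM, reads scaled by gene length and library depth), SLC7A11 stood at 0.766 ± 0.0298 of SLC3A2 in the controls and 0.156 ± 0.0201 with AURKB shRNA (SD, n = 3 each).

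CHAC1, the stress-inducible γ-glutamylcyclotransferase (ENSG00000128965, chromosome 15, 40952962 to 40956519, plus strand), had 171, 266 and 328 reads in the controls and 42, 31 and 33 with AURKB shRNA. Its control level was uneven, with 16.1 CPM in shGFP replicate 1 and 25.8 and 27.1 CPM in replicates 2 and 3, a coefficient of variation of 26.0% against 3.14% for SLC7A11. The AURKB shRNA libraries were close together at 3.68, 3.02 and 3.13 CPM, below every control. The log2 fold change of -2.81 ± 0.23 (SE) corresponds to 14.3% of control and ranked 4 from the lowest of the tested genes. Without shGFP replicate 1 it was -3.01, and over all libraries left out in turn it ran from -3.01 to -2.67.

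CHAC2, the constitutive paralogue (ENSG00000143942, chromosome 2, 53767792 to 53775196), showed no such fall. It was at 17.8, 17.3 and 20.0 CPM in the controls and 20.2, 19.4 and 21.1 CPM with AURKB shRNA, and the arms overlapped. At a log2 fold change of 0.14 ± 0.09 (SE) it was not called (edgeR adjusted p = 0.299). ASB3, which overlaps CHAC2 on the other strand, had 876 control reads and 600 reads with AURKB shRNA, against 609 and 652 for CHAC2. Per length, CHAC1 stood at 0.290 ± 0.0713 of CHAC2 in the controls and at 0.0375 ± 0.00404 with AURKB shRNA (SD, n = 3 each). By reads, CHAC1 was above CHAC2 in shGFP replicates 2 and 3 (266 and 328 against 178 and 242). The gene lengths behind the FPKM were not checked, so which transcript was the more abundant in the controls is not settled. With AURKB shRNA, CHAC2 was the higher in every library by reads and by FPKM.

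Short promoter stretches are shown because the sites that ATF4 and NRF2 bind are known by their sequence. Promoter windows from RefSeq (GRCh38.p14, 250 bases before to 50 after each start) matched 7 of the 10 genes by symbol: CHAC1, CHAC2, CTH, CBS, GCLC, GCLM and GPX4, in 12 windows. The C/EBP-ATF response element core TGATGNAA, searched on both strands, was found in CHAC1 alone of these 7 genes and in 3.62% of all 35116 windows. The antioxidant response element core TGACNNNGC was found in GCLM and CBS and in 13.3% of all windows. Neither the E-box CACGTG (7.26% of all windows) nor the cAMP response element TGACGTCA (1.85%) was found in a member's window. In the 30 bases around each match, on the gene's strand, capitals mark the match, which in all 3 genes is the reverse complement of the motif as written.
CHAC1, chr15:40953251-40953280, plus strand: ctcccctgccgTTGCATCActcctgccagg
GCLM, chr1:93909446-93909475, minus strand: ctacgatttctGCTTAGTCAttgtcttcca
CBS, chr21:43076442-43076471, minus strand: cccggctctggGCGCGGTCAcgcggggcgc
The CHAC1 match lies 209 to 202 bases before the RefSeq start, inside the longer gene span that the deposited table gives. The GCLM match lies 34 to 26 and the CBS match 83 to 75 bases before the start. The CBS match also lies inside the gene span of the deposited table, and the GCLM match meets the edge of its span. A match describes these letters and shows no binding, and a gene with one could be higher (GCLM) or lower (CBS).

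The transsulfuration genes were both expressed at a low level, with fewer reads in the AURKB shRNA libraries. CBS, which joins homocysteine to serine (ENSG00000160200, chromosome 21, 43053191 to 43076943, minus strand), had 75, 71 and 75 reads in the controls and 38, 45 and 24 with AURKB shRNA. The arms did not overlap, and CBS fell by 1.01 ± 0.23 (SE) on the log2 scale, from 6.72 ± 0.464 to 3.33 ± 1.06 CPM (SD, n = 3; edgeR adjusted p = 0.022). The call was lost without shGFP replicate 1, shGFP replicate 2 or shAURKB replicate 1 (adjusted p = 0.0635, 0.0608 and 0.0649, and 8.15e-03 to 0.0649 over all alternatives). It was also lost on log2(FPKM + 0.1) values (limma-trend adjusted p = 0.0643) and on unfiltered log2(FPKM + 1) values (0.0593).

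The reference genome carries a near-identical copy, CBSL (ENSG00000274276, chromosome 21, 6444869 to 6468040). A CBS and a CBSL transcript of 2453 bases differ at 1 base in GENCODE 29, and 94.5% of the 50-base windows of the longest CBS transcript also occur in CBSL. Most reads of the 2 genes thus cannot be told apart, and the value of either row depends on how the authors' counting assigned them. CBSL had 10, 16 and 15 reads in the controls and 4, 0 and 3 with AURKB shRNA. No AURKB shRNA library reached 10 reads, so CBSL was tested only because its controls were high. With both rows added, the reads were 85, 87 and 90 against 42, 45 and 27, and the 3 AURKB shRNA libraries again lay below the 3 controls. The log2 fold change of the sum was -1.17 (edgeR adjusted p = 8.15e-03).

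CTH, the lyase that releases cysteine from cystathionine (ENSG00000116761, chromosome 1, 70411218 to 70439851), had 19, 13 and 15 reads in the controls and 9, 6 and 3 with AURKB shRNA. No AURKB shRNA library reached 10 reads, so CTH was tested only because its controls were high. Its fitted log2 fold change of -1.34 ± 0.37 (SE) is therefore given as a description. With no filter on low counts CTH was not called (edgeR adjusted p = 0.0717), nor with the replicate number as a block (0.0522). The call was also lost without shGFP replicate 1 (edgeR adjusted p = 0.117) and without any other library but shAURKB replicate 1 (0.0772 to 0.103). DESeq2 gave CTH no adjusted p.

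Among the synthetic enzymes, the ligase subunits were slightly higher. GCLC, the catalytic subunit (ENSG00000001084, chromosome 6, 53497341 to 53616970, minus strand), was at 52.0, 60.2 and 48.6 CPM in the controls and 62.3, 77.4 and 74.6 CPM with AURKB shRNA. The lowest AURKB shRNA library was just above the highest control. GCLC rose by 0.42 ± 0.11 (SE) on the log2 scale, 1.33-fold (edgeR adjusted p = 0.0355), and the call was lost without shGFP replicate 1 (adjusted p = 0.0955), shGFP replicate 3 (0.0973), shAURKB replicate 2 (0.105) or shAURKB replicate 3 (0.0967). The GCLC call was also lost with upper-quartile scaling (edgeR adjusted p = 0.0548) and with each of the FPKM comparisons (limma-trend adjusted p = 0.0819 to 0.152). It was lost in 8 of 16 alternatives, and over all of them its adjusted p was 8.58e-03 to 0.152.

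GCLM, the modifier that raises the affinity of the ligase for glutamate (ENSG00000023909, chromosome 1, 93885205 to 93909456, minus strand), was at 43.5, 44.3 and 47.8 CPM in the controls and 55.0, 52.0 and 53.2 CPM with AURKB shRNA, without overlap. It rose by 0.24 ± 0.06 (SE), 1.18-fold (edgeR adjusted p = 0.032). That call was lost without any 1 library other than shGFP replicate 3 (adjusted p = 0.0647 to 0.0927) and in 12 of 16 alternatives in all (0.0308 to 0.116). The ratio of GCLM to GCLC per length was 1.43, 1.26 and 1.68 in the controls and 1.51, 1.15 and 1.22 with AURKB shRNA. These ratios overlapped, and their means of 1.45 ± 0.212 and 1.29 ± 0.191 (SD, n = 3 each) gave p = 0.4 in an exact two-sided permutation test, where 0.1 is the smallest this design allows.

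GSS, the synthetase of the last step (ENSG00000100983, chromosome 20, 34928430 to 34955817, minus strand), was at 113, 114 and 117 CPM in the controls and 113, 120 and 115 CPM with AURKB shRNA. The arms overlapped almost fully. At a log2 fold change of 0.01 ± 0.05 (SE) it was not called (edgeR adjusted p = 0.887), and the sign turned with upper-quartile scaling (-0.04), with each of the FPKM comparisons, and without shGFP replicate 1 or shAURKB replicate 2.

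GSR had the largest rise of the set with all 6 libraries. This NADPH-dependent reductase (ENSG00000104687, chromosome 8, 30678061 to 30727926, minus strand) was at 88.7, 87.7 and 87.0 CPM in the controls and 127, 119 and 124 CPM with AURKB shRNA. The controls differed from each other by a coefficient of variation of 0.974%, and each AURKB shRNA library lay well above them. GSR rose by 0.49 ± 0.05 (SE) on the log2 scale, 1.40-fold (edgeR adjusted p = 9.26e-04). The call held in all 16 alternatives, with log2 fold changes of 0.42 to 0.52 and adjusted p of 4.03e-10 to 0.0113. GCLC had the larger rise without shGFP replicate 2 (0.51 against 0.49 for GSR) and without shAURKB replicate 1 (0.51 against 0.47).

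GPX4, the selenoenzyme that reduces phospholipid hydroperoxides (ENSG00000167468, chromosome 19, 1103926 to 1106791, plus strand), was at 66.6, 66.1 and 71.1 CPM in the controls and 82.7, 85.7 and 78.5 CPM with AURKB shRNA, without overlap. It rose by 0.28 ± 0.06 (SE), 1.21-fold (edgeR adjusted p = 0.0165). The adjusted p was 0.0565 without shGFP replicate 1, 0.0533 without shGFP replicate 2 and 0.0551 without shAURKB replicate 2, and 7.94e-03 to 0.0576 over all alternatives. The GPX4 call was also lost with the replicate number as a block (edgeR adjusted p = 0.0568) and on unfiltered log2(FPKM + 1) values (limma-trend adjusted p = 0.0576).

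**Figure D2:**
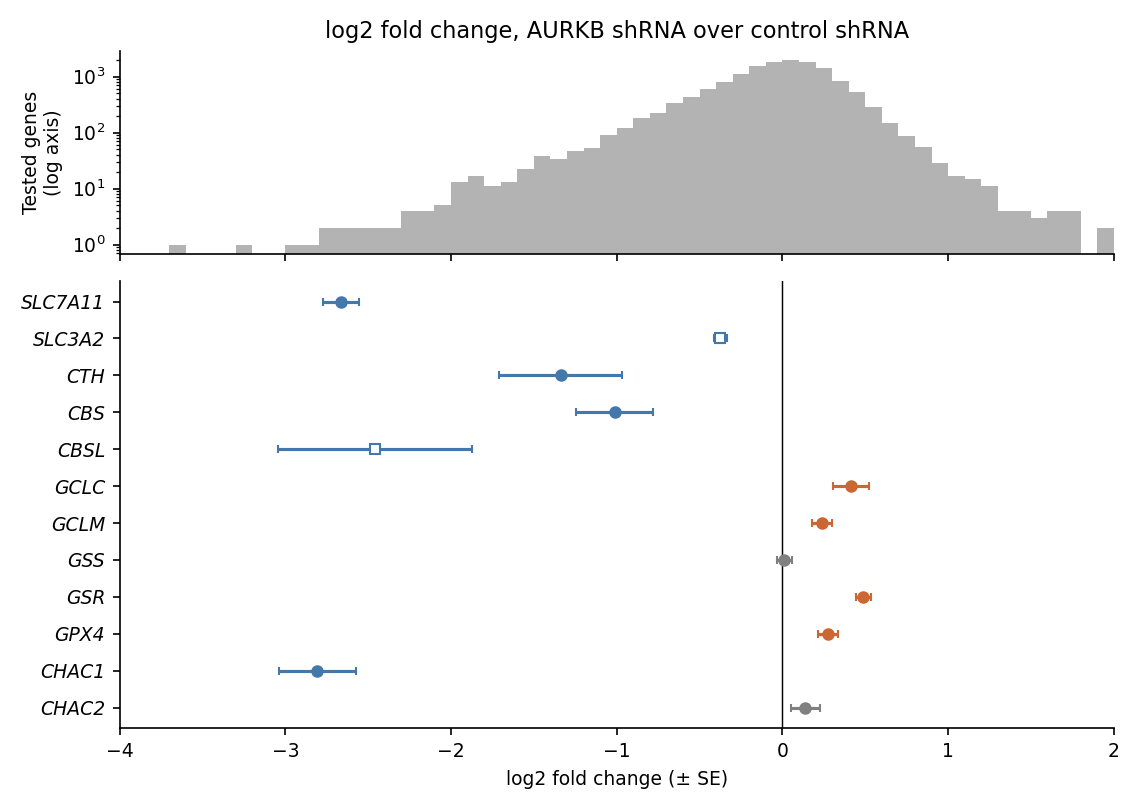
The upper panel gives the distribution of log2 fold changes over tested genes between -4 and 2 (counts on a log axis), and the lower panel the log2 fold change with its SE for the 10 genes (filled circles) and for SLC3A2 and CBSL (open squares). Orange marks higher, blue lower and grey not called. SLC7A11 and CHAC1, at -2.66 and -2.81, lie in the far left tail, and the 4 higher genes between 0.24 and 0.49. The blue of SLC7A11 and CHAC1, whose falls chose the set, is a description. So is that of CTH and CBSL, tested only because their controls were high.

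**Figure D3:**
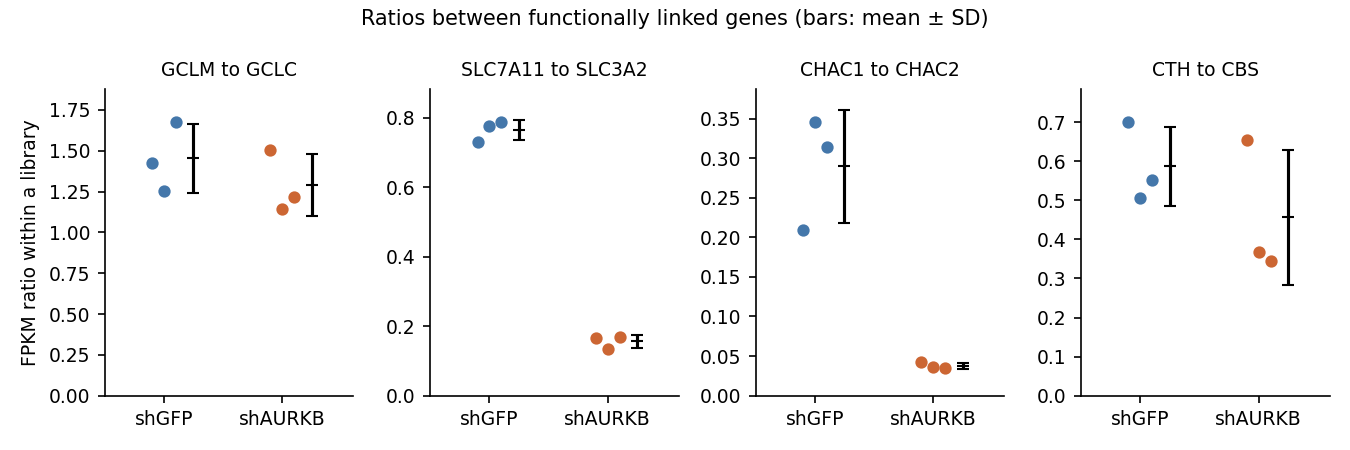
Ratios of FPKM within each library for 4 pairs of linked genes, with points for libraries and bars for the mean ± SD of 3 libraries. The ratios of SLC7A11 to SLC3A2 and of CHAC1 to CHAC2 separate the arms, while those of GCLM to GCLC and of CTH to CBS overlap.

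Levels were compared between genes per length, in the deposited FPKM, whose gene lengths were not checked. The order differs by reads. In the controls GPX4 was at 67.95 ± 2.77 CPM and CHAC2 at 18.37 ± 1.44 CPM (SD, n = 3), while FPKM places CHAC2 above GPX4. In the controls the order was GSS (53.6 ± 1.04), GSR (22.1 ± 0.236), CHAC2 (14.1 ± 1.10), GPX4 (12.5 ± 0.506), SLC7A11 (8.49 ± 0.258), GCLM (5.60 ± 0.278), CHAC1 (4.09 ± 1.06), GCLC (3.89 ± 0.431), CBS (0.669 ± 0.0466) and CTH (0.394 ± 0.0868; SD, n = 3). Of neighbours in this order, CHAC1 and GCLC overlapped and the others did not. With AURKB shRNA, SLC7A11 moved from rank 5 to rank 7, at 1.29 ± 0.185 FPKM, behind GCLM (6.38 ± 0.182) and GCLC (5.01 ± 0.560). CHAC1 was at 0.562 ± 0.0608 FPKM, above CBS at 0.320 ± 0.102, and CHAC2 and GPX4 (15.0 ± 0.574 and 14.6 ± 0.677) were the only neighbours that overlapped. By FPKM the transsulfuration transcripts were the lowest of the set in both arms. In CPM with AURKB shRNA, CHAC1 (3.28 ± 0.351) was level with CBS (3.33 ± 1.06, SD, n = 3).

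The profiles most like those of SLC7A11 and CHAC1 were sought among 9901 other protein-coding genes with at least 5 CPM on average, by Euclidean distance between log2 CPM centred on the control mean over the 6 libraries. The nearest 4 were the same genes in the same order for both: NOTCH3 (distance 0.555 to SLC7A11 and 0.856 to CHAC1), VLDLR (0.748 and 1.03), GNAO1 (0.952 and 1.23) and SESN2 (1.11 and 1.28). Their log2 fold changes were -2.40, -2.29, -2.15 and -2.07. Only 6 of the 9901 candidates had a log2 fold change of -2 or less, so few genes could lie near either profile.

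Other genes of the pathway were described from 8 lists set by role, with 151 of 152 symbols in the table and 112 tested. Of these, 24 were higher, 14 lower and 74 not called, beside 12.5% and 10.9% of all tested genes, with a median log2 fold change of 0.01 (0.00 over all tested genes). With upper-quartile scaling 18 were higher and 20 lower. Among partners and alternatives in cystine and cysteine transport, 3 of 6 tested were lower and none higher (median -0.34). They were SLC3A2 and the neutral amino acid carriers SLC1A5, which fell by 0.50 ± 0.05 (SE) from 248 to 175 CPM (edgeR adjusted p = 1.24e-03), and SLC1A4, which fell by 0.30 ± 0.05 (edgeR adjusted p = 5.14e-03). SLC1A1, a carrier that takes up cysteine, was below the filter.

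In the γ-glutamyl cycle and the turnover of glutathione outside the cell, 1 of 7 tested was higher and 1 lower (median -0.02). The aminopeptidase gene LAP3 rose by 0.33 ± 0.06 (SE; edgeR adjusted p = 0.012), a call lost on unfiltered log2(FPKM + 1) values (adjusted p = 0.053). The dipeptidase gene DPEP2 fell by 1.21 ± 0.30 from 2.03 to 0.864 CPM (edgeR adjusted p = 0.0285), a call lost without any 1 library other than shGFP replicate 1 (adjusted p = 0.0575 to 0.0857, and up to 0.116 with DESeq2). With AURKB shRNA it was at 0.963, 0.585 and 1.04 CPM, near the filter on low counts. Only the control arm met that filter in all its libraries, so the fall of DPEP2 is given as a description. GGT1 and GGCT, which start and continue the cycle, had log2 fold changes of -0.26 and 0.09 and were not called.

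Of 12 tested glutathione peroxidases and transferases, only GSTP1 was called (1 higher and 1 lower with upper-quartile scaling). This transferase gene rose by 0.45 ± 0.04 (SE), from 277 to 378 CPM (edgeR adjusted p = 6.69e-04; list median -0.02). Among 12 glutaredoxins and glutathione carriers, 4 were higher and 1 lower (median 0.15), or 2 and 3 with upper-quartile scaling, with the iron-sulfur glutaredoxin GLRX3 rising by 0.40 ± 0.05 (edgeR adjusted p = 2.16e-03). The mitochondrial glutathione importers went opposite ways: SLC25A40 fell by 0.41 ± 0.07 (edgeR adjusted p = 8.84e-03) and SLC25A39 rose by 0.26 ± 0.07 (edgeR adjusted p = 0.0433). The SLC25A39 call was lost without any 1 library other than shGFP replicate 1 (adjusted p = 0.0818 to 0.119, and 0.0291 to 0.18 over all alternatives), and 2 or 3 of the list's 5 calls were left without any 1 library. In the methionine cycle and cysteine use, 1 of 17 was higher and 1 lower (median -0.06), the transaminase gene GOT2 (0.26 ± 0.04, edgeR adjusted p = 5.30e-03) and the methionine synthase gene MTR (-0.26 ± 0.05, edgeR adjusted p = 8.48e-03).

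NADPH, which GSR consumes, is supplied by a further list in which 6 of 13 tested were higher and 1 lower (median 0.12), or 5 and 2 with upper-quartile scaling. The folate enzyme gene MTHFD2 fell by 0.40 ± 0.08 (edgeR adjusted p = 0.0121). Of 22 ferroptosis modulators, 7 were higher and 2 lower (median 0.12). The ferritin light chain gene FTL rose by 1.05 ± 0.05, from 404 to 836 CPM (edgeR adjusted p = 1.36e-04). FTH1, the ferritin heavy chain, rose by 0.46 ± 0.05 (edgeR adjusted p = 1.25e-03), and TFRC, the iron importer, by 0.42 ± 0.03 (edgeR adjusted p = 4.61e-04); these were chosen after their values were seen. SAT1, the polyamine acetyltransferase gene, fell by 0.62 ± 0.10 (edgeR adjusted p = 6.15e-03).

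Among 23 tested regulators known to act on SLC7A11 or CHAC1, 4 were higher and 5 lower (median -0.09), or 1 and 6 with upper-quartile scaling. ATF4 was at 746, 762 and 686 CPM in the controls and 598, 582 and 577 CPM with AURKB shRNA, without overlap. It fell by 0.32 ± 0.04 (SE) on the log2 scale (edgeR adjusted p = 3.84e-03), a far smaller fitted change than those of SLC7A11 and CHAC1. ATF4 is known to be controlled largely at translation, which RNA counts do not measure. JDP2, a bZIP repressor gene with the lowest log2 fold change among the list's calls, had 27, 43 and 26 reads in the controls and 8, 4 and 7 with AURKB shRNA. Like CTH it was tested only because its controls were high, so its log2 fold change of -2.30 ± 0.37 is given as a description. CEBPB, a partner of ATF4, fell by 0.88 ± 0.10 (edgeR adjusted p = 1.97e-03), and TRIB3 by 0.65 ± 0.09 (edgeR adjusted p = 3.40e-03), both named after their values were seen. The same list held genes that were not called: ATF3 (-0.49), DDIT3 (-0.42), CEBPG (-0.02), ATF5 (0.08) and PPP1R15A (0.02). PPP1R15B was called lower (-0.22), and EIF2AK2 (0.22) and EIF2AK4 (0.20) were called higher.

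NFE2L2, the gene of NRF2, was at 83.5, 83.5 and 38.8 CPM in the controls and 55.3, 56.5 and 50.8 CPM with AURKB shRNA. The controls thus spanned the AURKB shRNA libraries, with shGFP replicate 3 the lowest of all. At a log2 fold change of -0.34 ± 0.27 (SE) NFE2L2 was not called (edgeR adjusted p = 0.413), and dropping shGFP replicate 1 or 2 brought it to -0.17 (adjusted p = 0.735). Dropping shGFP replicate 3 instead gave -0.62, which was called (edgeR adjusted p = 5.09e-03). KEAP1, which directs NRF2 to degradation, rose by 0.28 ± 0.06 (edgeR adjusted p = 0.0135), a call lost with the replicate number as a block (adjusted p = 0.0512) and on unfiltered log2(FPKM + 1) values (0.0508).

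**Figure D4:**
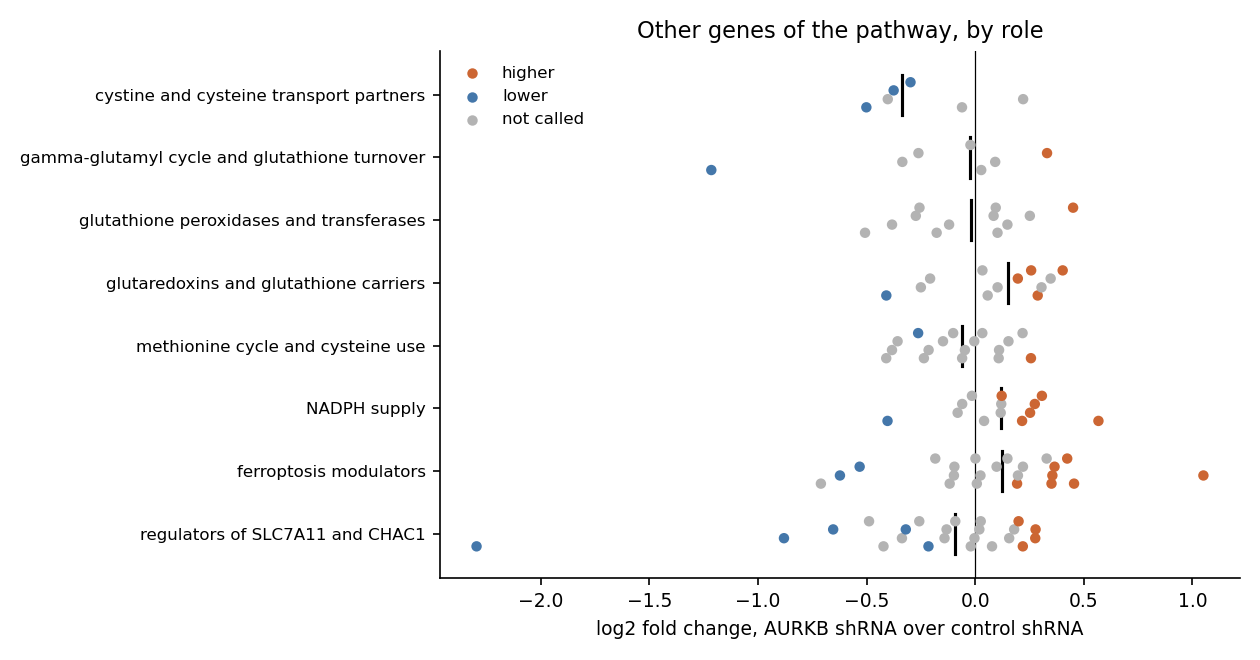
log2 fold change of each tested gene in the 8 lists of other pathway genes, 1 point a gene, with black bars for list medians. Orange marks higher, blue lower and grey not called. The points furthest from 0 are JDP2 at -2.30, DPEP2 at -1.21 and FTL at 1.05. The blue of JDP2 and DPEP2 is a description, since only their controls met the low-count filter in all libraries.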

How the data were processed

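Sample titles assigned the 6 libraries to the arms. The replicates are biological according to the series' design text, and p-values measure the spread between 3 cultures an arm. The authors deposited whole-number counts and FPKM values per Ensembl gene (50868 genes, all 12 sample columns used). HISAT2 2.0.4, StringTie 1.3.0 and edgeR are named with GRCh38, per the submitters' processing notes. The sources used here do not give their roles, the strand setting or the handling of multi-mapped reads. Coordinates are those of the deposited table, and strands come from GENCODE 29, whose positions are identical for all members but GSS and GSR.

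After filterByExpr (minimum count 10, minimum total 15), 14818 genes holding at least 99.6% of each library's counts were scaled by TMM. A quasi-likelihood fit in edgeR 4.0.16 (R 4.3.3) had the arm as its only term, with two-sided p-values adjusted by Benjamini-Hochberg over the whole tested set and a threshold of 0.05. The SE is the fitted log2 fold change divided by the square root of the test's F. The fit was tested on simulated counts. FPKM served for levels between genes, though the gene lengths behind it were not checked. As log2(FPKM + pseudocount) with limma 3.58.1 it also served for alternatives. Such fold changes understate those of low genes.

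The members and lists were chosen with earlier results of these data known. The text names all members, SLC3A2, CBSL, ATF4 and NFE2L2, the called gene with the largest rise and that with the largest fall of each list, and the 4 genes of nearest profile. A further gene that this rule picks is not reported here. Others were named after their values were seen. Reads carry no stated molecular identifiers.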

Additional observations from a re-analysis of the deposited data

How the results depend on the processing

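The alternatives were scaling by RLE or the upper quartile; DESeq2 1.42.0 (with its own scaling and filter) or limma-voom as the test; other low-count filters (none, or 1 CPM in at least 3 libraries); a replicate block; limma-trend on log2(FPKM + 1) or log2(FPKM + 0.1) over genes with 0.5 FPKM in 3 libraries, and the former unfiltered; and each library left out. The FPKM alternatives change unit, test and filter together. SLC7A11 and CHAC1 kept their direction, and GSR, SLC3A2 and ATF4 their direction and call, in all 16. Over the 39 named genes 542 of 614 values kept direction and side of the threshold, 65 lost the call, 1 gained it and 6 turned sign, all of them GSS (-0.0429 with upper-quartile scaling, -0.0397 and -0.0404 with log2(FPKM + 1) and log2(FPKM + 0.1), -0.0397 unfiltered, and -0.0109 to 0.0329 with a library left out). Values that DESeq2 gave without an adjusted p (CTH, CBSL) are not counted. The tally includes SLC7A11 and CHAC1, which chose the set, and CTH, CBSL, DPEP2 and JDP2, which passed the filter through high controls. It also includes genes named for their large changes or after their values were seen, so nothing is read from its share.

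With upper-quartile scaling, which set the median gene at -0.06, 2 members were higher and 2 genes of the peroxidase and transferase list were called. DESeq2 called 1062 genes lower and 1 of the γ-glutamyl list, and without a low-count filter 3 of the glutaredoxin list were called. With log2(FPKM + 1), 2 members were higher, and 1, 2, 3 and 5 genes were called in the γ-glutamyl, peroxidase, glutaredoxin and regulator lists. With log2(FPKM + 0.1), 2 members were higher and 2 lower, and the same lists held 1, 2, 3 and 5 calls. CTH was below its filter there, and CBS lost its call (limma-trend adjusted p = 0.0643). Unfiltered log2(FPKM + 1) called 914 genes higher, 1 member higher and 2 lower, 11 pathway genes higher, and 0, 2, 4 and 4 genes of the γ-glutamyl, glutaredoxin, NADPH and regulator lists.

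Leaving out 1 library gave 998 to 1056 genes lower, 1 to 3 members higher, 2 to 3 members lower, 1 to 2 calls in the γ-glutamyl list and 2 to 3 in the glutaredoxin list; without shGFP replicate 1, 1 member was higher and 2 were lower. With the replicate block, 1027 genes were lower, 2 members were higher, and the γ-glutamyl, peroxidase and glutaredoxin lists held 1, 2 and 3 calls. Same-numbered libraries did not deviate together (correlations -0.0887 to -0.0313), so the numbers give no sign of pairing. The causes of these differences were not tested. Depth limits the genes with few reads, such as CTH, CBSL, DPEP2 and JDP2.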
